A study of Danio rerio with 12 samples.

Results

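Brains of male zebrafish aged 6 months were compared between fish that carry a miR-29 sponge and wild-type fish. The 8 libraries of the strains actb1::miR-29sponge and kif5a::miR-29sponge were set as 1 side, with each line given equal weight, against 4 wild type libraries. All 12 libraries of the series therefore entered the comparison, 4 from each strain. The aim was to describe changes that both lines have in common. Of 32105 genes in the count table, the 19645 with more than 0.5 CPM (read counts scaled to a common library size) in 4 or more libraries entered the tests.

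A sponge RNA carries sites that a chosen microRNA binds, so that less of the microRNA is free to act on other transcripts. miR-29 is a microRNA family known for repressing collagens and other matrix genes, DNA methyltransferases and pro-apoptotic BH3-only genes, and it is abundant in adult neurons of mammals. In killifish brain it has also been tied to iron regulation through IREB2, an iron regulatory protein. The strain names refer to actb1, which encodes a cytoplasmic actin of most cells, and to kif5a, which encodes a motor protein of neuronal transport. The labels give no founder or clone numbers, and whether each library is a separate animal is not stated. The p-values therefore reflect spread among these libraries, which may be technical.

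Total gene counts ran from 20884576 to 33573243 per library, and 23780 to 24354 genes had a count. The RNA came from brain tissue, so fewer cells of a type and less RNA per cell cannot be told apart. Neuron, astroglia and oligodendrocyte markers were abundant in every library, with summed levels of at least 8587, 8127 and 13910 CPM. Some libraries stood apart from others of their own strain. Transcripts of the mitochondrial genome took 2.24% of the counts of actb1 sponge 3 and 9.37% to 14% in the other 11 libraries. Photoreceptor genes were high in 5 of the 8 sponge libraries, namely actb1 sponge 1, 2 and 3 and kif5a sponge 2 and 3. No wild type library was high in them. Microglia genes were highest in wild type 2 and 4, with mean log2 levels of 0.67 and 0.72 relative to the wild type mean. Next came actb1 sponge 4 at 0.36 and actb1 sponge 3 at 0.12. High photoreceptor levels thus lay on 1 side of the pooled comparison, while raised microglia levels were not confined to 1 side. The part of both traits in the pooled changes was not tested. The kit does not mark the strand, so reads of a gene and of an overlapping antisense partner cannot be told apart.

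More genes were lower than higher in both sponge lines together. By the quasi-likelihood test of edgeR, adjusted by Benjamini-Hochberg over all tested genes, 92 genes were lower (0.468%) and 30 were higher (0.153%) at an adjusted p under 0.05. Together these are 122 genes, or 0.621% of those tested, and 58 of the lower and 16 of the higher genes changed by more than 2-fold. Counts of called genes on the gene lists below are to be read beside these shares. With the deposited RPKM values and limma the split was nearly even, at 26 lower and 25 higher, and the median of all genes moved to 0.14. Those RPKM values followed library totals recycled down the table, as described under processing, so they are a weak check on the split. In the main test the median log2 change over all tested genes was -0.02, and 2632 genes had an unadjusted p under 0.05. All 8 sponge libraries lay below all 4 wild type libraries for 60 of the lower genes, and above them for 22 of the higher genes. Over all tested genes such a separation occurred for 218 genes downwards (1.11%) and 174 upwards (0.886%). The calls used the same values, so a larger share among called genes follows in part from the selection. The rule for naming genes by size or p also asked for this separation, so it is no further evidence for genes named that way.

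A pooled call can arise from 1 line alone, so the lines were also compared with each other. Wild type levels do not enter that difference, but the wild type libraries share in its estimate of the spread. That test called 232 of 19645 genes (1.18%), with 126 higher in the actb1 line (0.641%) and 106 lower (0.54%). Among the 122 pooled calls, 30 also differed between the lines and 92 were not called between them. For 96 of the 122 the difference between the lines was smaller than the pooled change, and the median size was a log2 of 1.19 for the pooled change and 0.49 for the line difference. A line difference that missed the threshold does not show that the lines act alike, and its unadjusted 95% interval is given for many genes below. Some of these intervals exclude an equal change in both lines, although the gene was not called between them.

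**Figure D1:**
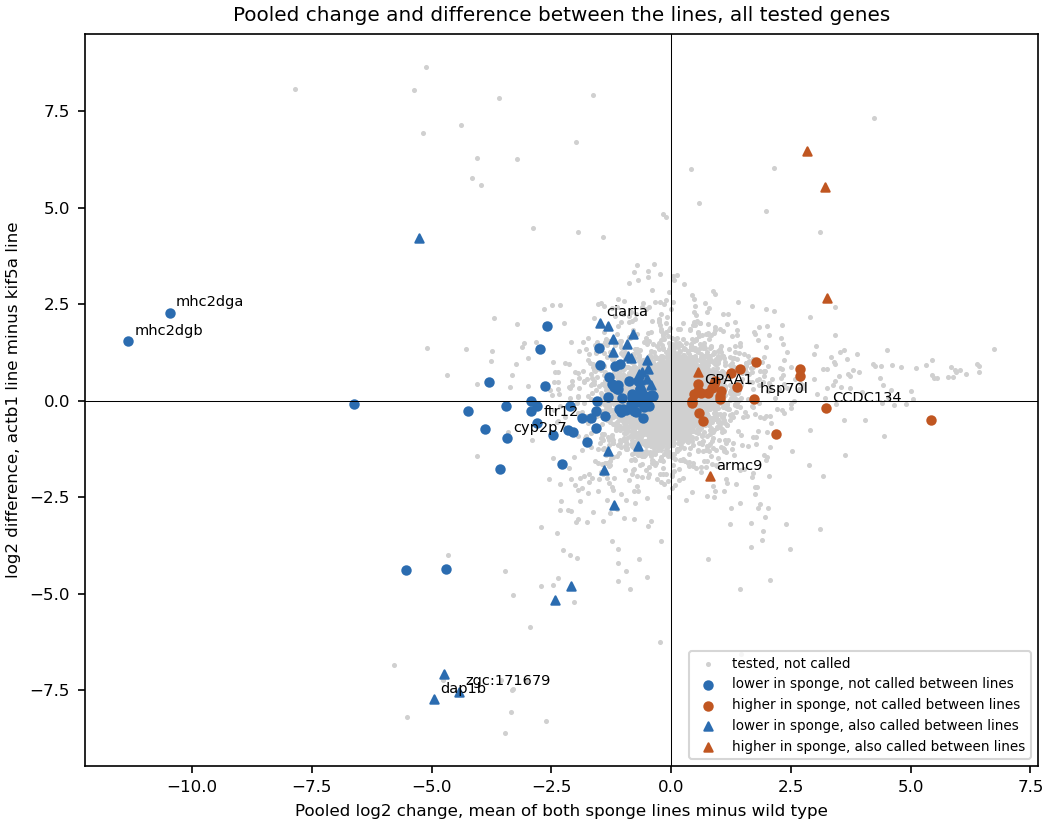
Pooled log2 change of both sponge lines against wild type (horizontal) and log2 difference of the actb1 line minus the kif5a line (vertical) for 19645 tested genes. Grey points were not called; blue is lower and orange higher in sponge libraries, circles were not called between the lines, and triangles, 30 of 122, were.

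The deepest shared losses were in genes of the MHC class II family, whose products present peptides to T cells. mhc2dgb stood at 15.3, 34.2, 7.81 and 21.7 CPM in wild type 1 to 4, and gave 1 count in actb1 sponge 1 and 0 in the other 7 sponge libraries. Wild type gave 2085 counts in all and the sponge lines 1, which is a 4603-fold ratio after scaling for depth (95% counting interval 825 to 181900). mhc2dga stood at 8.30, 25.3, 4.30 and 17.6 CPM in wild type and gave 2 counts, both in actb1 sponge 1, a ratio of 1606 (444 to 13270). Both genes were thus present in every wild type library and at or near 0 in every sponge library. Adjusted p-values were 5.97e-05 and 0.000269 (edgeR), and both genes were called in all 12 fits that left out 1 library.

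ENSDARG00000101337, which lies within 10 tested genes of this pair in the count table, was named after its values were seen. It stood at 43.5, 100, 32.1 and 113 CPM in wild type, at 5.33 to 11.6 CPM in the actb1 line and at 0 to 0.743 CPM in the kif5a line. It was lower in both lines, but not equally, since its line difference was a log2 of 4.22 ± 0.61 (edgeR adjusted p = 0.00554). MHC genes are closely related to each other and the treatment of ambiguous reads is unknown here, so their levels are uncertain.

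Of 29 tested antigen presentation genes, the same 2 were called lower and 0 higher, beside 0.468% and 0.153% of all tested genes. The list's median log2 change was -0.59 (-0.85 to -0.27 with 1 library left out, and -0.27 and -0.28 without wild type 2 and 4). MHC class I gene mhc1zaa had a log2 change of -3.07 ± 0.67 and was not called (edgeR adjusted p = 0.0698). Its wild type levels were uneven, at 0.447, 5.28, 1.52 and 5.39 CPM. Beside these values, summed microglia genes ranged from 1677 to 3794 CPM in wild type and from 1504 to 3739 CPM in sponge libraries, with 1 of 44 tested genes called lower and a median of -0.50. That median ran from -0.66 to -0.11 with 1 library left out, and was -0.30 without wild type 2 and -0.11 without wild type 4. Other leukocyte genes ranged from 140 to 369 CPM in wild type and from 142 to 177 CPM in sponge libraries, with 0 of 23 called and a median of -0.60, which was -0.07 without wild type 2. The part of these cells in the MHC values was not tested.

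The microglia gene that was called is CTSB, the lysosomal protease cathepsin B. It stood at 86.2, 88.1, 90.4 and 115 CPM in wild type, at 60.7, 65.2, 65.7 and 74.8 CPM in the actb1 line and at 51.6, 57.0, 62.3 and 62.5 CPM in the kif5a line. Its groups did not overlap, although wild type 4 was the highest library by a wide margin. In log2 terms the change was -0.61 ± 0.09 (edgeR adjusted p = 0.0126), and without wild type 4 it was -0.48 and no longer called. IRF8, a transcription factor that microglia need, stood at 7.26, 41.7, 7.66 and 47.3 CPM in wild type against 6.75 to 19.0 CPM in sponge libraries, and was not called (log2 change -1.12 ± 0.45, edgeR adjusted p = 0.311).

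FAH, the last enzyme of tyrosine breakdown, stood at 6.29, 8.02, 7.88 and 5.63 CPM in wild type, at 1.53, 1.39, 2.15 and 1.45 CPM in the actb1 line and at 2.81, 3.11, 1.61 and 1.46 CPM in the kif5a line. Every sponge library was below every wild type library, and kif5a sponge 1 and 2 were the highest of the sponge libraries. Pooled over both lines, the log2 change was -1.86 ± 0.22 (edgeR adjusted p = 0.00186), with a line difference of -0.46 (95% interval -1.05 to 0.13). It was the 1 called gene among 10 tested genes of tyrosine breakdown, whose median was 0.13.

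HYKK (ENSDARG00000074341), which phosphorylates hydroxylysine from broken-down collagen, stood at 7.71, 19.7, 11.81 and 11.6 CPM in wild type. Sponge libraries held 3.75 to 5.48 CPM in the actb1 line and 3.46 to 5.20 CPM in the kif5a line. The log2 change was -1.55 ± 0.21 (edgeR adjusted p = 0.00516), and the lines differed by -0.02 (-0.57 to 0.53). FAH and HYKK were called in all 12 fits that left out 1 library.

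Among 39 tested genes of the fatty acid and pyruvate switch, 3 were lower and 0 higher, with a median of -0.10. Over all tested genes 0.468% were lower and 0.153% higher. PDK2 (ENSDARG00000020876), a kinase that shuts the pyruvate dehydrogenase complex, stood at 69.6, 65.3, 54.7 and 57.0 CPM in wild type, at 40.2, 25.6, 27.2 and 32.9 CPM in the actb1 line and at 17.1, 20.8, 25.6 and 39.2 CPM in the kif5a line. The groups did not overlap, and the sponge libraries varied more among themselves than those of wild type. In log2 terms the change was -1.12 ± 0.19 (edgeR adjusted p = 0.0192), with a line difference of 0.29 (-0.20 to 0.78).

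PDK4, a kinase of the same complex that fasting induces in mammals, held 15.5 to 20.6 CPM in wild type, 8.71 to 10.6 CPM in the actb1 line and 6.27 to 13.2 CPM in the kif5a line. It changed by a log2 of -0.81 ± 0.16 (edgeR adjusted p = 0.0487), close to the threshold. ANGPTL4, a secreted inhibitor of lipoprotein lipase, stood at 47.7, 92.8, 48.6 and 48.3 CPM in wild type and at 23.5, 16.8, 46.3 and 47.2 CPM in the actb1 line. In the kif5a line it stood at 11.85, 11.13, 9.81 and 18.8 CPM. The loss was thus seen in every kif5a library, while actb1 sponge 3 and 4 were just below wild type. Against wild type the log2 change was -1.51 ± 0.29 (edgeR adjusted p = 0.0374), with a line difference of 1.37 (0.61 to 2.13) that was not called (adjusted p = 0.0861).

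Calls for these lipid and pyruvate genes depended on single libraries. PDK2 was called in 7 of the 12 fits that left out 1 library and was lost without wild type 1, 2 or 4, actb1 sponge 2 or kif5a sponge 3, at log2 changes of -1.24 to -1.02 over the 12 fits. ANGPTL4 was called in 4 fits (-1.62 to -1.21) and PDK4 in 1, that without kif5a sponge 4 (-0.90 to -0.70). The paralogue PDK2 (ENSDARG00000059054) and the carnitine palmitoyltransferase genes cpt1ab and CPT1B were not called. BBOX1, the last enzyme of carnitine synthesis, was named after its values were seen: it held 11.06 to 18.3 CPM in wild type and 3.60 to 10.5 CPM in sponge libraries, a log2 change of -1.23 ± 0.23 (edgeR adjusted p = 0.0336), called in 3 of 12 fits.

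Further losses were measured in genes of varied roles. cyp2p7, a cytochrome P450 gene, stood at 7.28 CPM in wild type 3 and at 11.03 to 11.88 CPM in the other 3 wild type libraries, at 1.16, 1.12, 0 and 0.484 CPM in the actb1 line and at 1.81, 2.21, 0.628 and 0.716 CPM in the kif5a line. Every sponge library was far below the lowest wild type library, and actb1 sponge 3 had no counts. Pooled over both lines, the log2 change was -3.42 ± 0.54 (edgeR adjusted p = 0.0140), with a line difference of -0.98 (-2.50 to 0.54). ftr12, a finTRIM gene of a large fish family related to antiviral TRIM proteins, held 2.94, 6.53, 3.24 and 8.99 CPM in wild type and 0.502 to 1.31 CPM in sponge libraries. The pooled log2 change came to -2.80 ± 0.31 (edgeR adjusted p = 0.00135). znf106b, a zinc finger gene, held 8.86, 8.26, 4.65 and 8.04 CPM in wild type and 1.62 to 3.20 CPM in sponge libraries, a log2 change of -1.68 ± 0.18 (edgeR adjusted p = 0.00095). These 3 genes were called in all 12 fits.

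Smaller and tighter losses were measured in genes at higher levels, of which DEF8, hspb15 and HCCS were named after their values were seen. DEF8, which acts in lysosome positioning, stood at 78.9, 72.7, 81.6 and 67.3 CPM in wild type, at 48.8, 45.1, 36.7 and 52.0 CPM in the actb1 line and at 50.3, 45.5, 43.6 and 47.1 CPM in the kif5a line. Its log2 changes of -0.72 ± 0.11 and -0.69 ± 0.11 in the actb1 and kif5a lines share the same wild type libraries. The pooled change was -0.70 ± 0.09 (edgeR adjusted p = 0.00411) and the line difference -0.03 (-0.27 to 0.20).

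hspb15, a small heat shock protein gene, held 37.7 to 47.4 CPM in wild type, 21.6 to 23.9 CPM in the actb1 line and 23.6 to 33.4 CPM in the kif5a line. HCCS (ENSDARG00000028131), which attaches heme to cytochrome c, held 17.9 to 23.0 CPM in wild type, 13.3 to 15.2 CPM in the actb1 line and 11.3 to 11.9 CPM in the kif5a line. Groups did not overlap for either gene. The log2 changes were -0.73 ± 0.10 (edgeR adjusted p = 0.00487) and -0.66 ± 0.09 (0.00617). The line differences were -0.29 (95% interval -0.54 to -0.04) for hspb15 and 0.31 (0.08 to 0.54) for HCCS, and neither was called. DUSP22, a dual-specificity phosphatase gene also named after its values were seen, fell by 1.56 ± 0.22 on the log2 scale (edgeR adjusted p = 0.00719). Its line difference of -0.71 (-1.30 to -0.12) was not called. DEF8, hspb15, HCCS and DUSP22 were called in all 12 fits.

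SLC40A1, the iron exporter ferroportin, was the 1 called gene among 28 tested iron genes, whose median was -0.02. It stood at 78.6, 94.7, 89.4 and 70.6 CPM in wild type, at 55.4, 55.7, 47.0 and 56.5 CPM in the actb1 line and at 66.1, 49.3, 56.5 and 67.1 CPM in the kif5a line. The sponge libraries all lay below wild type, but kif5a sponge 1 and 4 came close to wild type 4. The fitted log2 change was -0.56 ± 0.10 (edgeR adjusted p = 0.0336), and it was called in 3 of 12 fits (-0.61 to -0.49), those without wild type 4, actb1 sponge 3 or kif5a sponge 4. IREB2 stood at 44.7 to 47.9 CPM in wild type and 45.3 to 55.6 CPM in sponge libraries, a log2 change of 0.14 ± 0.07 (adjusted p = 0.426).

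ASPA, the enzyme that splits N-acetylaspartate in oligodendrocytes, was named after its values were seen. It stood at 10.7, 10.5, 14.8 and 10.6 CPM in wild type, at 7.68, 6.64, 5.30 and 3.47 CPM in the actb1 line and at 4.68, 3.28, 5.30 and 4.73 CPM in the kif5a line. Its log2 change was -1.19 ± 0.20 (edgeR adjusted p = 0.0164), called in all 12 fits, while 0 of 22 tested oligodendrocyte marker genes were called. A pair of genes of lipid signalling and transport was also lower, and likewise named after its values were seen: DAGLA, which makes the endocannabinoid 2-arachidonoylglycerol, and the choline transporter-like gene SLC44A5 (ENSDARG00000057419), had log2 changes of -0.62 ± 0.12 and -0.60 ± 0.11 (edgeR adjusted p = 0.0421 and 0.0366). They were called in 2 and 4 of 12 fits.

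**Figure D2:**
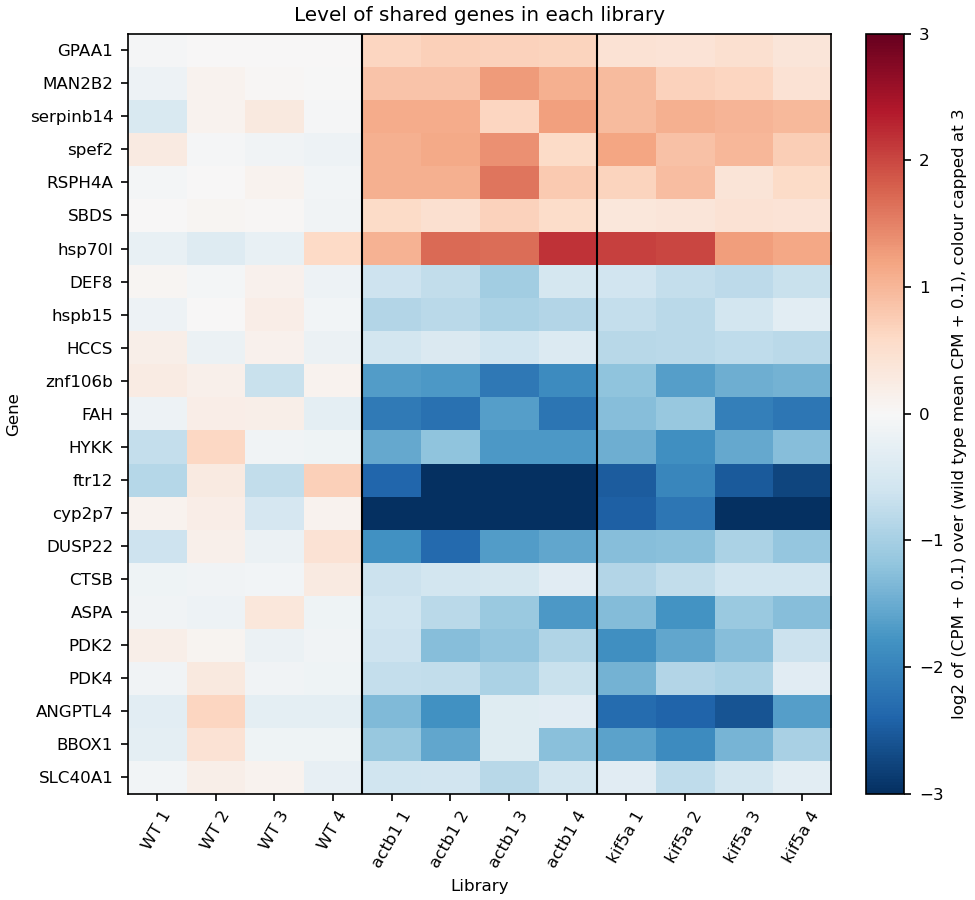
Level of 23 genes named in the text in each of 12 libraries, as log2 of CPM plus 0.1 over the wild type mean CPM plus 0.1, with colours capped at a log2 of 3. Red is higher and blue lower than the wild type mean; the 2 black lines separate wild type, the actb1 line and the kif5a line.

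Higher genes were fewer, and 16 of the 30 changed by more than 2-fold. GPAA1, a subunit of the transamidase that attaches GPI anchors to proteins, stood at 21.97, 22.8, 22.7 and 22.6 CPM in wild type, at 35.1, 37.2, 36.5 and 35.6 CPM in the actb1 line and at 30.6, 29.7, 31.3 and 28.9 CPM in the kif5a line. The 3 strains did not overlap, with the actb1 line highest. The log2 change was 0.55 ± 0.06 (edgeR adjusted p = 0.00146), and the line difference of 0.26 (0.11 to 0.41) was not called (adjusted p = 0.0976).

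SBDS, a factor for maturation of the large ribosomal subunit, was named after its values were seen. It held 23.1 to 25.8 CPM in wild type, 34.7 to 40.3 CPM in the actb1 line and 31.5 to 33.8 CPM in the kif5a line, a log2 change of 0.48 ± 0.07 (edgeR adjusted p = 0.00844). The line difference of SBDS was 0.18 (0.01 to 0.35) and was not called. MAN2B2, an alpha-mannosidase gene, held 14.5 to 17.3 CPM in wild type, 29.1 to 39.0 CPM in the actb1 line and 21.8 to 30.9 CPM in the kif5a line, a change of 0.86 ± 0.12 (adjusted p = 0.00516). The line difference of MAN2B2 was 0.33 (0.05 to 0.61) and was not called. serpinb14, of the serpin family of protease inhibitors, stood at 7.89, 11.7, 13.4 and 10.7 CPM in wild type and at 17.0 to 25.6 CPM in sponge libraries. It changed by a log2 of 1.02 ± 0.15 (edgeR adjusted p = 0.0075), with a line difference of 0.04 (-0.30 to 0.39). GPAA1, SBDS, MAN2B2 and serpinb14 were called in all 12 fits.

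Single genes of motile cilia were also among the higher ones. spef2, a gene of the axoneme's central apparatus, stood at 11.9, 9.65, 9.22 and 8.90 CPM in wild type, at 20.97, 22.1, 26.0 and 14.7 CPM in the actb1 line and at 22.7, 18.2, 19.8 and 16.6 CPM in the kif5a line. Against wild type the log2 change was 1.02 ± 0.15 (edgeR adjusted p = 0.0114), called in all 12 fits. Of 45 tested genes on the list of motile cilia and the ciliary base, 2 were higher, RSPH4A and armc9, and 0 lower, with a median of 0.06. The shares over all tested genes were 0.153% higher and 0.468% lower. The list had 29 genes above 0 and 16 below, where 46.09% of all tested genes were above 0. DNAH3, also on the list, went the other way and was not called (-0.73 ± 0.23, edgeR adjusted p = 0.191). The change of armc9 was 1.78 ± 0.10 in the kif5a line and -0.18 ± 0.10 in the actb1 line, so it was not shared. RSPH4A, a radial spoke head gene, held 3.88 to 4.46 CPM in wild type and 5.37 to 12.6 CPM in sponge libraries, a change of 0.92 ± 0.17 (adjusted p = 0.0308), called in 5 of 12 fits. Its line difference of 0.51 (95% interval 0.12 to 0.91) was not called. Both spef2 and RSPH4A were highest in actb1 sponge 3. The mean log2 level of the cilia list relative to wild type was also highest there, at 0.52, and lowest in actb1 sponge 4, at -0.35. Without the 5 libraries high in photoreceptor genes, the median of the cilia list was -0.09 and that of ependyma genes 0.03. Beside these values, ependyma genes had 1 of 22 tested called higher, which was RSPH4A, a median of 0.21 and summed levels of 90.5 to 112 CPM in wild type and 88.2 to 176 CPM in sponge libraries, and their part in the result was not tested.

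hsp70l, an inducible chaperone gene, was the 1 higher gene among 32 tested heat shock genes, of which 1, HSF2, was lower. It stood at 3.61, 3.18, 3.62 and 6.48 CPM in wild type, at 8.88, 14.04, 13.7 and 19.2 CPM in the actb1 line and at 17.8, 17.2, 10.2 and 9.56 CPM in the kif5a line. Wild type 4 was the highest of its group and still below all sponge libraries. In log2 terms the change was 1.72 ± 0.28 (edgeR adjusted p = 0.0154), and the lines differed by 0.03 (-0.60 to 0.66). It was called in 10 of 12 fits, not without wild type 1 or 2 (1.60 to 2.02 over the 12). AHSA1 (ENSDARG00000100317), a cochaperone of HSP90, held 54.8 to 71.0 CPM in wild type and 73.0 to 84.1 CPM in sponge libraries and was not called (0.30 ± 0.08, adjusted p = 0.125). The list's median was 0.13.

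Larger increases were measured in genes at low levels in wild type. CCDC134 (ENSDARG00000103285) stood at 2.01, 0.982, 0 and 0.994 CPM in wild type and at 6.14 to 12.6 CPM in sponge libraries, a log2 change of 3.23 ± 0.57 (edgeR adjusted p = 0.0293), called in 5 of 12 fits at 2.81 to 3.85. The neighbouring lectin genes hbl1 and hbl2, named after their values were seen, held 0.186 to 0.406 and 1.45 to 2.27 CPM in wild type and 0.692 to 3.43 and 1.56 to 19.3 CPM in sponge libraries. Their log2 changes were 2.69 ± 0.47 and 2.68 ± 0.53 (edgeR adjusted p = 0.0251 and 0.0446), called in 7 and 2 of 12 fits. hbl2 overlapped between groups through kif5a sponge 2. ENSDARG00000087767, a gene with no name in the supplied table and chosen after its values were seen, gave 3 counts in wild type and 332 in the sponge lines, which is 50.1-fold higher after scaling (95% counting interval 17.0 to 244).

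A further set of pooled calls came from genes of the circadian clock, which keeps daily time through a loop of period and cryptochrome repressors, and from genes that light induces in fish. Of 51 tested clock genes, 10 were lower and 0 higher, with a median of -0.14, against 0.468% lower and 0.153% higher of all tested genes. In the test between the lines 18 of the 51 were called, against 1.18% of all tested genes. Among the 18 were 9 of the 10 lower genes, all but CRY1. ciarta, a repressor within the loop, stood at 45.9, 39.2, 41.1 and 39.0 CPM in wild type, at 27.7, 29.5, 27.5 and 34.3 CPM in the actb1 line and at 5.94, 8.16, 7.06 and 8.25 CPM in the kif5a line. All sponge libraries were below wild type, and those of the kif5a line were far lower. The pooled log2 change was -1.48 ± 0.10 (edgeR adjusted p = 4.79e-05), the mean of -0.47 ± 0.12 (actb1 line) and -2.49 ± 0.13 (kif5a line), which share the wild type libraries. The line difference of 2.02 ± 0.13 passed its own test (adjusted p = 6.49e-06).

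The photolyase-family gene cry-dash held 26.6 to 38.0 CPM in wild type, 18.9 to 21.7 CPM in the actb1 line and 7.85 to 9.22 CPM in the kif5a line. Its pooled change was -1.22 ± 0.10 (edgeR adjusted p = 8.13e-05), with -0.59 ± 0.12 and -1.85 ± 0.12 in the actb1 and kif5a lines. For ciarta, cry-dash, PER2 and CRY2 all 8 sponge libraries lay below wild type, and these 4 genes were called in all 12 fits. PER2 had a pooled change of -0.68 ± 0.08 and CRY2 of -0.65 ± 0.08 (edgeR adjusted p = 0.00195 and 0.0032). NR1D1, a heme-binding nuclear receptor that represses clock activators, stood at 84.1, 55.4, 59.0 and 57.2 CPM in wild type and at 47.1, 48.6, 34.8 and 68.6 CPM in the actb1 line, which overlap. In the kif5a line it stood at 10.9 to 15.0 CPM, and its pooled change was -1.33 ± 0.16 (edgeR adjusted p = 0.00251), with line values of -0.36 ± 0.19 (actb1) and -2.31 ± 0.21 (kif5a).

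cry5, a photolyase gene, stood at 11.7 to 15.1 CPM in wild type, 11.5 to 17.8 CPM in the actb1 line and 3.62 to 4.59 CPM in the kif5a line. Against wild type it changed by 0.06 ± 0.15 (actb1 line) and -1.66 ± 0.16 (kif5a line) on the log2 scale, and the line difference of 1.72 ± 0.16 was called (edgeR adjusted p = 0.00023). DDB2, which recognises ultraviolet damage in DNA, changed by -0.28 ± 0.14 and -1.38 ± 0.14 in the 2 lines. The clock genes PER1 (both copies) and BHLHE41, and outside the clock list cipca and the heat shock factor gene HSF2, were likewise called between the lines, with the lower level in the kif5a line. HSF2 was called in 0 of 12 fits that left out 1 library. BHLHE41, cipca and CRY1 were named after their values were seen. CRY1 (ENSDARG00000011583) was not called between the lines (0.52, 95% interval 0.23 to 0.81), with a pooled change of -0.70 ± 0.11 (edgeR adjusted p = 0.0154). The labels give no time of day at sampling.

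**Figure D3:**
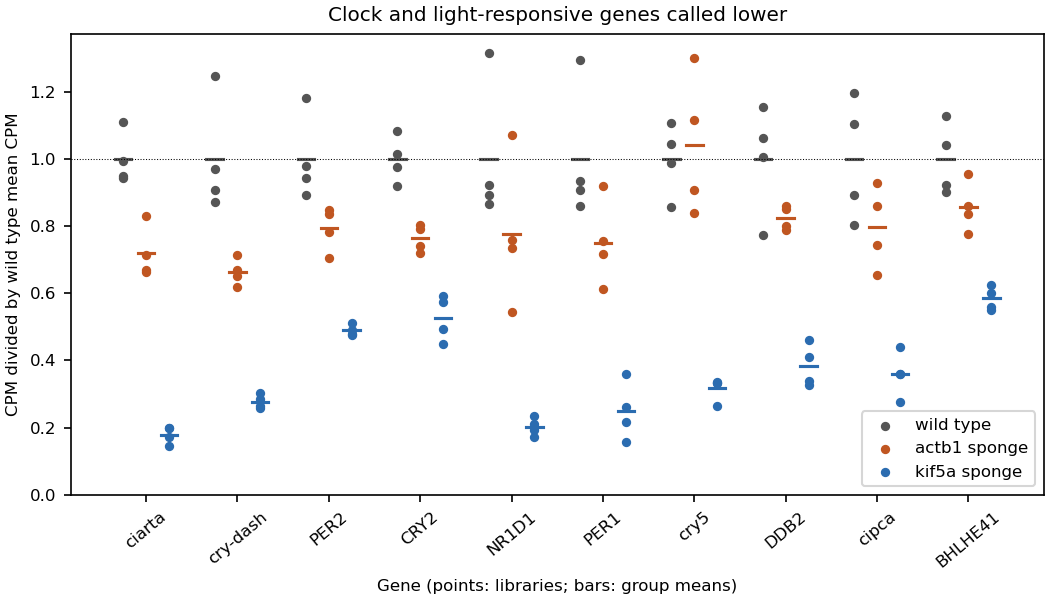
Level of 10 clock and light-responsive genes called lower, as CPM divided by the wild type mean, in 4 libraries of each strain (points) with group means (bars). For ciarta the actb1 libraries lie between wild type and the kif5a libraries, while for cry5 the actb1 libraries overlap wild type.

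Other pooled calls were set by 1 line in either direction. armc9, a gene of the ciliary base, stood at 8.90 to 10.5 CPM in wild type, 8.14 to 8.87 CPM in the actb1 line and 29.1 to 36.2 CPM in the kif5a line. Its pooled change of 0.80 ± 0.09 (edgeR adjusted p = 0.00141) combined -0.18 ± 0.10 and 1.78 ± 0.10. dap1b, zgc:171679 and si:dkey-240n22.6, named after their values were seen, were lost in the actb1 line, at 0 to 0.0997, 0 to 0.166 and 0.202 to 0.399 CPM. In the kif5a line zgc:171679 stood at 7.81 to 12.9 CPM and si:dkey-240n22.6 at 9.30 to 12.1 CPM. There dap1b was at 0 in kif5a sponge 2 and at 12.7 to 17.9 CPM in the other 3 libraries. The pooled call of dap1b held in 5 of the 12 fits that left out 1 library. Among the 30 genes called both ways, the larger change was in the actb1 line for 13 and in the kif5a line for 17. The chemokine gene cxcl12b was lower in all 8 sponge libraries, with a line difference of -1.31 ± 0.28 (edgeR adjusted p = 0.0455). It stood at 9.74 to 32.3 CPM in the actb1 line, 47.7 to 50.4 CPM in the kif5a line and 62.8 to 97.5 CPM in wild type. Its pooled call held in 3 of the 12 fits that left out 1 library.

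A few large losses rested on uneven wild type libraries, and they were named after their values were seen. zgc:101699 stood at 1.30, 38.9, 0.762 and 277 CPM in wild type and at 0.118 to 2.37 CPM in sponge libraries. znf1179 stood at 79.9, 5.04, 3.77 and 91.8 CPM in wild type and at 3.51 to 4.63 CPM in sponge libraries. In both genes a pair of wild type libraries was high and the others lay within or near the sponge range. KCNK5 (ENSDARG00000023587) was at 6.33, 1.05, 0.457 and 15.1 CPM and CCNF at 2.08, 7.11, 21.1 and 10.1 CPM in wild type. These 4 genes were called in 3, 2, 3 and 1 of the 12 fits.

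Reported target classes of miR-29 are read here against all tested genes, of which 0.621% were called and 46.09% were above 0. Of 50 tested matrix genes, which include the collagens, 0 were called in either direction at a median of 0.19, with 39 above 0 and 11 below. The smallest p-values on this list were those of LOXL2 and loxl2a, which moved in opposite directions. Their log2 changes were -2.53 ± 0.58 and 1.98 ± 0.77 (edgeR adjusted p = 0.0835 and 0.294). LOXL2 stood at 3.95, 41.9, 29.4 and 2.60 CPM in wild type and at 1.84 to 5.61 CPM in sponge libraries. COL1A2, a chain of type I collagen, stood at 21.5, 22.3, 31.2 and 18.8 CPM in wild type, at 31.8, 32.3, 111 and 30.8 CPM in the actb1 line and at 38.8, 115, 38.9 and 23.1 CPM in the kif5a line. Library actb1 sponge 3 and library kif5a sponge 2 were far above the rest. The pooled log2 change came to 1.17 ± 0.47 (edgeR adjusted p = 0.302). Without the 5 libraries high in photoreceptor genes, the median of the matrix list was -0.04. The meninges and fibroblast list shares 9 of its 27 tested genes with the matrix list. Its other 18 genes were highest in the same pair of libraries, with log2 means of 0.29 and 0.55 against -0.24 to 0.23 in the other 10 libraries, and their part in the collagen values was not tested.

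Of 19 tested DNA methylation genes 0 were called (median -0.01), and of 24 tested BH3-only and BCL2 family genes 0 were called (median -0.12). Of 48 other reported targets 2 were lower, both of them PER1 genes. DNMT3A (ENSDARG00000015566), a DNA methyltransferase, had a log2 change of 0.02 ± 0.12. The namesake genes were not called: actb1 changed by 0.08 ± 0.15 and KIF5A by 0.14 ± 0.09 (edgeR adjusted p = 0.871 and 0.552). No library had more than 2 counts for MIR29A or 1 for MIR29B1, the precursor genes in the table, so miR-29 itself and the sponge transcript are not measured here.

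Of 33 tested genes of cholesterol synthesis and uptake 31 were above 0, with a median of 0.44, and 0 were called. Over all tested genes 46.09% were above 0. ldlrb, a receptor gene for low-density lipoprotein, stood at 9.49, 10.9, 9.90 and 11.4 CPM in wild type, at 13.5, 14.3, 26.2 and 17.0 CPM in the actb1 line and at 24.6, 23.5, 14.4 and 11.0 CPM in the kif5a line. Only kif5a sponge 4 fell within the wild type range. The fitted log2 change was 0.80 ± 0.24 (edgeR adjusted p = 0.165). The list mean relative to wild type was 0.33 to 0.48 in the 4 actb1 libraries, 1.04 and 0.75 in kif5a sponge 1 and 2, and 0.05 and -0.23 in kif5a sponge 3 and 4.

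Immediate early genes, which neuronal activity induces, had 1 of 36 tested genes called lower, FOSL1. That gene was called in 1 of the 12 fits that left out 1 library. Of the 36, 30 were below 0 and the median was -0.17, while 46.09% of all tested genes were above 0. Without the 5 libraries high in photoreceptor genes that median was -0.02. Cytosolic ribosome genes had a median of 0.00, and 0 of 75 were called. The line medians were 0.24 (actb1) and -0.20 (kif5a), but the actb1 libraries were mixed. List means relative to wild type were -0.14, -0.23, 0.73 and 0.29 in actb1 sponge 1 to 4. Those of the kif5a libraries ran from -0.31 to -0.08. Neuron markers had a median of 0.04 with 0 of 29 called.

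Photoreceptor genes had the largest median of the 38 lists, 3.39 over 39 tested genes, and 0 were called. Genes low in wild type could pass the level filter through high sponge libraries alone, so this median and its rank may follow in part from the filter. An example was crx, at 0 to 0.186 CPM in wild type and 2.51 to 4.32 CPM in 5 sponge libraries. GNAT1, rod transducin, stood at 2.12, 0.305, 0.267 and 0.473 CPM in wild type, at 56.7, 38.5, 80.2 and 0.726 CPM in the actb1 line and at 0.872, 55.0, 59.8 and 2.52 CPM in the kif5a line. Its 5 high libraries crossed both lines and its 3 low libraries lay near wild type. Pooled over both lines, the log2 change was 5.49 ± 1.47 (edgeR adjusted p = 0.135). Pineal genes followed the same libraries, with list means of 2.21 to 2.81 in those 5 and -0.06 to 0.15 in the other 3 sponge libraries. The photoreceptor gene PDE6G was above wild type in every sponge library, at 4.49 to 47.0 CPM against 0.474 to 2.67 CPM. It was not called (log2 change 3.39 ± 0.75, edgeR adjusted p = 0.0727), and its log2 change without the 5 libraries was 1.35. Of 48 matched photoreceptor genes 1 was at 0 in every wild type library, and no gene was at 0 in every sponge library.

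**Figure D4:**
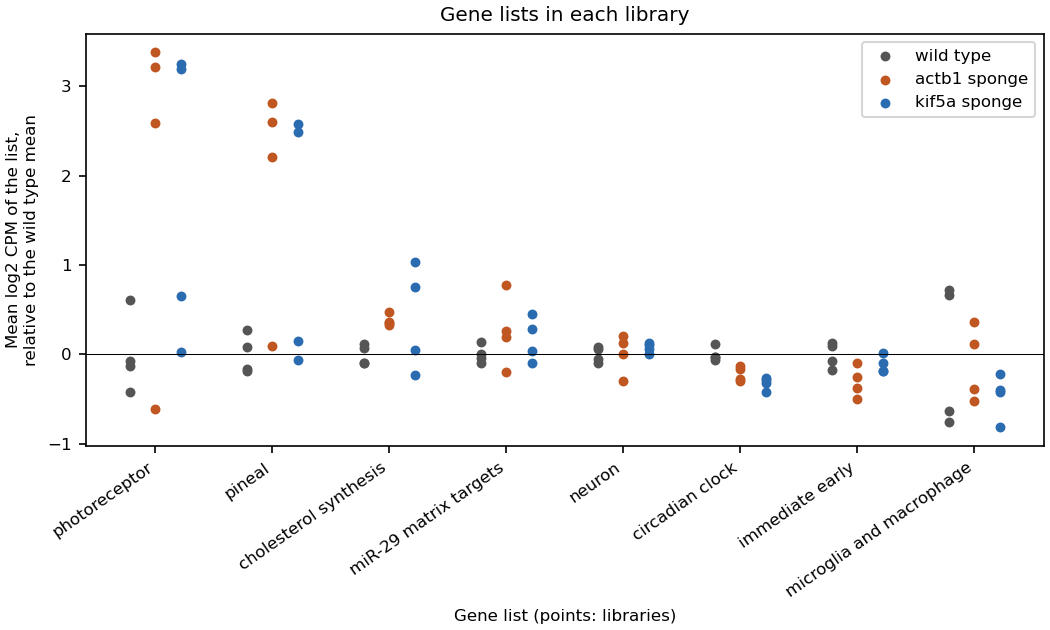
Mean log2 CPM of 8 gene lists in each of 12 libraries relative to the wild type mean (points). Photoreceptor and pineal genes are high in 5 sponge libraries across both lines. Microglia genes are highest in wild type 2 and 4, followed by actb1 sponge 4.

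Without those 5 libraries 3 sponge libraries remained, 1 of the actb1 line and 2 of the kif5a line, and the pooled test called 1 gene higher and 3 lower. Nearly all of the 122 genes called with all libraries were no longer called there. All 122 kept the direction of change, and their median size was a log2 of 1.11 against 1.19. The genes had been chosen with these same libraries among others, so this was likely beforehand and gives no independent support. The lone actb1 library was assumed to vary like the other groups.

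Some called genes lay close together. In the order of the count table, in which 98.35% of consecutive matched genes share a chromosome, 28 of the 122 called genes (22.95%) had another called gene within 10 tested genes, against 11.02% of all tested genes. By the supplied gene table the shares were 15.12% of 86 called genes and 11.44%. The runs include mhc2dga and mhc2dgb on chromosome 8 with ENSDARG00000101337, and hbl2, hbl1 and tep1 on chromosome 2. ENSDARG00000087767, which rose, lay within 10 tested genes of ENSDARG00000100333, also chosen after its values were seen. Neither has a chromosome in the supplied table, and the matched gene nearest to them in the count table is on chromosome 7. ENSDARG00000100333 stood at 10.9, 5.72, 8.27 and 6.10 CPM in wild type and 0.309 to 1.18 CPM in sponge libraries (log2 change -3.88 ± 0.27, edgeR adjusted p = 4.79e-05).

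Calls varied with single libraries. With 1 library left out in turn, 11 to 41 genes were higher and 44 to 136 lower, and 41 of the 122 genes were called in every one of the 12 fits (8 higher and 33 lower). All 122 kept their direction in each fit, which was likely beforehand because they were chosen with all 12 libraries. The most calls came without wild type 3 (41 higher and 136 lower), the fewest lower genes without kif5a sponge 1 (44) and the fewest higher genes without wild type 1 or actb1 sponge 1 (11 each). In simulated counts for this comparison edgeR found 16.4% of the 73 genes given a 1.5-fold change, 63.3% of the 60 given a 2-fold change and 89.6% of the 67 given a 4-fold change among 19645 genes. It made 3 false calls and DESeq2 47. Changes under 2-fold were thus often not detectable by edgeR at this depth and spread. The simulated counts used edgeR's own estimates of spread and the same change in both lines, without effects of single libraries. They therefore cannot rank the tools on the real counts.

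**Figure D5:**
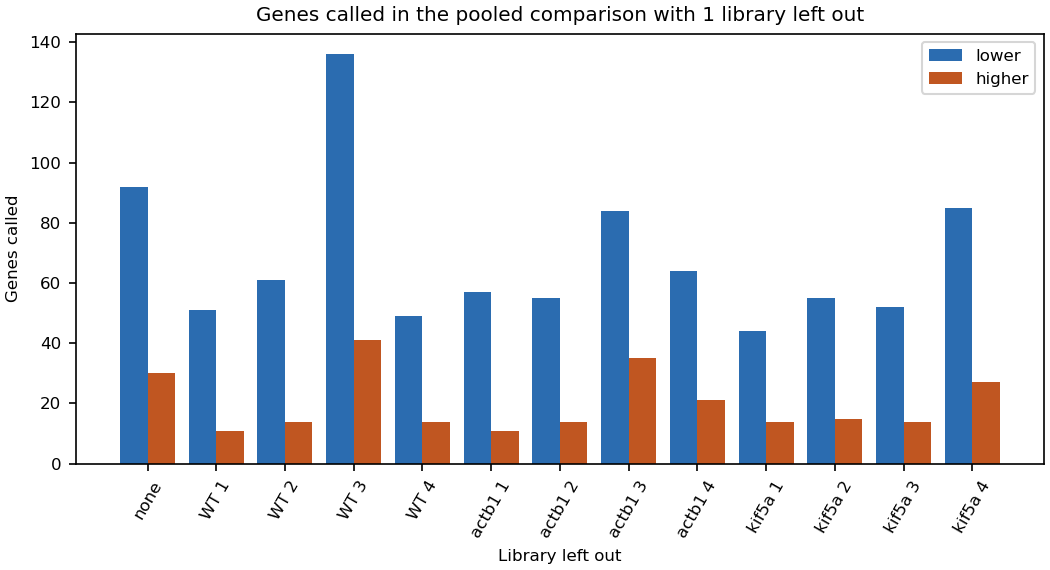
Genes called lower (blue) and higher (orange) in the pooled comparison with all 12 libraries (none) and with each library left out in turn. Counts ran from 44 to 136 lower and from 11 to 41 higher genes over the 12 fits.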

How the data were processed

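RNA from brain was sequenced in 12 libraries. For every gene the authors deposited raw counts, the input of each main test, and RPKM values. The submitters' processing notes name bcl2fastq 1.8.4, STAR 2.4.1d, featureCounts 1.4.6-p4 and the build GRCz10; which annotation release and which setting for ambiguous reads were used is unknown here. The RPKM values the authors deposited were used in 1 alternative only, because the count-to-RPKM ratio of 6540 well covered genes (over 500 counts per library) followed library totals recycled down the table (median coefficient of variation 1.48e-05) and not those of the library itself (0.179).

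Libraries were grouped by strain label and numbered in accession order. A single edgeR 4.0.16 model (R 4.3.3, TMM, quasi-likelihood test, Benjamini-Hochberg adjustment over 19645 genes) held all 12, and the contrast was the mean of both lines minus wild type. The actb1 line was set against the kif5a line in the same model. CPM are TMM-normalised, values after ± are standard errors, and intervals of count ratios cover counting error alone. No pair of libraries of the same strain matched within sampling noise (the lowest chi-square per degree of freedom was 9.18). Pairs with actb1 sponge 3 stood far apart, at 209 to 250, against at most 45.8 for all other pairs. Alternatives used DESeq2 1.42.0, limma 3.58.1, other filters and scalings, and left-out libraries. Tests were also tried on simulated counts, drawn with the spread that edgeR estimated from these data.

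A supplied table gave symbols for 81.8% of identifiers, many of them human orthologue names; 1632 symbols stand for several identifiers and are then printed with the identifier. For chromosomes, symbols were matched to a GRCz12tu table. Genes were named by rule: called and separated genes with a true name and at least 2 CPM on average (up to 12 per direction by size, and the 10 of smallest p), up to 3 of each list described, up to 6 called between the lines, construct genes, and genes at the floor of 3 counts. A further 24 genes were added after their values were seen. The comparison and the 38 gene lists were chosen with earlier results of these data known.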

Additional observations from a re-analysis of the deposited data

Results flagged for a closer look

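In the following cases 1 library of a strain lay far from its 3 others in CPM, past Dixon's 95% value; chance gives such a case in about 1 of 20 groups, and no cause was tested. In actb1 sponge 1, ftr12 was at 0.964 CPM against 0.502 to 0.54 CPM and hbl1 was at 1.06 CPM against 3.04 to 3.43 CPM. In actb1 sponge 3, LOXL2 was at 5.61 CPM against 2.86 to 3.29 CPM, COL1A2 was at 111 CPM against 30.8 to 32.3 CPM and SLC40A1 was at 47 CPM against 55.4 to 56.5 CPM. In the same library, actb1 sponge 3, col1a1a was at 56.3 CPM against 17.8 to 19.4 CPM and DAGLA was at 94.8 CPM against 141 to 148 CPM. In actb1 sponge 4, LPL (ENSDARG00000087697) was at 65.9 CPM against 96.2 to 102 CPM and DNMT3A (ENSDARG00000005394) was at 5.57 CPM against 20.5 to 23.3 CPM. In kif5a sponge 1, cry5 was at 3.62 CPM against 4.55 to 4.59 CPM, ISCU (ENSDARG00000035596) was at 67.5 CPM against 76.5 to 77.6 CPM and DNAH3 was at 2.88 CPM against 1.73 to 1.88 CPM. In the same library, kif5a sponge 1, IRF8 was at 6.75 CPM against 12.4 to 13.5 CPM. In kif5a sponge 2, DROSHA was at 45.9 CPM against 49.7 to 50.4 CPM. In kif5a sponge 3, hephl1a was at 19.4 CPM against 30.3 to 31.1 CPM. In kif5a sponge 4, STXBP6 was at 14.8 CPM against 19.5 to 20.1 CPM and zgc:101699 was at 2.37 CPM against 0.118 to 0.42 CPM. In wild type 1, NR1D1 was at 84.1 CPM against 55.4 to 59 CPM, PER1 (ENSDARG00000056885) was at 34.7 CPM against 23.1 to 25 CPM and GNAT1 was at 2.12 CPM against 0.267 to 0.473 CPM. In wild type 2, ANGPTL4 was at 92.8 CPM against 47.7 to 48.6 CPM, PDK4 was at 20.6 CPM against 15.5 to 15.7 CPM and hbl2 was at 2.27 CPM against 1.45 to 1.51 CPM. In wild type 3, tfr1b was at 362 CPM against 100 to 126 CPM and ASPA was at 14.8 CPM against 10.5 to 10.7 CPM. In wild type 4, hsp70l was at 6.48 CPM against 3.18 to 3.62 CPM, loxl2a was at 3.41 CPM against 0.237 to 0.495 CPM and CTSB was at 115 CPM against 86.2 to 90.4 CPM. In the same library, wild type 4, zgc:101699 was at 277 CPM against 0.762 to 38.9 CPM.

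Some pooled results differed between the lines in edgeR's test of the difference itself (actb1 line minus kif5a line, adjusted p under 0.05, with the spread estimated over all 12 libraries). The log2 differences were 2.02 for ciarta, -1.31 for cxcl12b, 1.26 for cry-dash, 0.70 for PER2 and 0.54 for CRY2. Further differences were -1.96 for armc9, 1.72 for cry5, 1.94 for NR1D1, 1.04 for HSF2 and 1.59 for PER1 (ENSDARG00000056885). They were also 0.74 for PER1 (ENSDARG00000012499), 1.1 for DDB2, 1.12 for LPL (ENSDARG00000087697), 4.22 for ENSDARG00000101337 and -7.54 for zgc:171679. Values were -5.17 for si:dkey-240n22.6, -7.73 for dap1b, 0.55 for BHLHE41 and 1.15 for cipca.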

How the results depend on the processing

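Without the 5 libraries high in photoreceptor genes, an alternative chosen after seeing the data, 1 gene was higher, 3 were lower and 1117 differed between the lines, against 30, 92 and 232. In that setting actb1 sponge 4 was the only actb1 library left. The test between the lines then rested on this library, so its count cannot show a stronger difference between the lines. DESeq2 called 274 higher, 389 lower and 950 between the lines. It made 47 false calls in the simulation against 3 by edgeR. The simulated counts followed edgeR's estimates of spread, so this does not show which of the real calls are false. limma-voom called 15 higher. With the lines merged into 1 group, 9 were higher and 31 lower. The line difference enters the spread in that setting, and its part in the smaller counts was not tested. The deposited RPKM values, which followed recycled library totals, gave 25 higher, 26 lower and 124 between the lines. Leaving out 1 library gave 11 to 41 higher, 44 to 136 lower and 100 to 250 between the lines; list medians ranged from -0.14 to 0.29 for red blood cell genes (0.29 without wild type 4) and from -0.76 to -0.07 for other leukocyte genes (-0.07 without wild type 2). None of the 105 named genes reversed its direction as a called change in the alternatives run. The deposited RPKM values shifted the median of all genes to 0.14 from -0.02; list medians there were 0.08 for BH3 and BCL2 genes, -0.04 for clock, 0.05 for the fatty acid switch, 0.21 for oxidative phosphorylation, 0.24 for heat shock, 0.19 for antioxidant, -0.02 for immediate early, 0.09 for protein kinase A, 0.16 for cxcl12, 0.25 for red blood cell, 0.28 for neuron, 0.25 for astroglia, 0.11 for oligodendrocyte, 0.20 for endothelial and 0.21 for proliferation genes. Without the 5 libraries they were -0.16 for DNA methylation, -0.24 for clock, -0.02 for immediate early, -0.23 for photoreceptor, 0.01 for pineal, 0.06 for GABAergic and -0.10 for endothelial genes. Above 2 CPM the pituitary median was 1.99. The fall of the photoreceptor median without the 5 libraries follows from their choice by those same genes. The cause of the other moves was not tested. No paired analysis was possible because the labels number no replicates across strains.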
